A study of Mus musculus with 16 samples.

Results

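The lncRNAs described here are the 3174 NONCODE transcripts that were measurable in mouse skeletal muscle and that lay outside every interval of the mRNA table, called outside lncRNAs below. They were taken from 58245 lncRNA rows by 4 conditions. The identifier came from NONCODE, a catalogue of noncoding transcripts, the mean expected count over 16 mice was at least 10, the row was not among the 100 rows of highest mean count, and its genomic interval shared no base with an mRNA interval. Of 50877 NONCODE rows, 13450 reached the minimum, 82 of these were among the top rows, and 10194 of the other 13368 overlapped an mRNA interval. The mean count chose the lncRNAs, so the values at the bounds are a description. NONMMUT094184.1 and NONMMUT054403.2 lay just inside the minimum at that minimum, with a mean count of 10, and NONMMUT086537.1 and NONMMUT135856.1 lay just outside it with 9.94 each. At the upper bound, NONMMUT150366.1 and NONMMUT150331.1 were inside with 1664 and 1624 counts, and NONMMUT070174.2 and NONMMUT150328.1 were outside with 1780 and 1792 counts.

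The samples were skeletal muscles of 16 male C57BL/6J mice, which entered the experiment at 6 weeks of age, in 4 groups of 4. Control mice ate a normal diet. HFD mice ate a high-fat diet with 60% fat for 8 weeks, a model of diet-induced insulin resistance. The HFD + RSV and HFD + metformin groups had the same diet and were then given resveratrol (RSV), a plant polyphenol, or metformin, a glucose-lowering drug, for 6 weeks. RNA was sequenced after ribosomal RNA removal, so unspliced RNA could enter the libraries, and the strand setting of the counting was not given in the sources used here. Reads of an lncRNA and of an antisense or adjoining transcript could therefore not be told apart. The study's methods describe an insulin injection before collection in some mice of each group, and which of the sequenced mice had it was not given in the sources used here. All 4 HFD mice carry the number 7 in their labels and no other mouse does, so a cage or other unit marked by that number and the HFD group cannot be told apart.

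Total expected counts over both tables were 20281801 to 34021101 per mouse, and the lncRNA table held 2655892 to 4325781 of them. The outside lncRNAs took 4.49% to 5.6% of the lncRNA counts, with overlapping ranges in all 4 groups. Markers fitted the labelled tissue. The 8 skeletal muscle markers summed to 30300 to 47600 FPKM (fragments mapped per kilobase of transcript, scaled to library size) in each mouse, whereas the retina markers, looked at because the extraction label names retinas, summed to at most 1.41 FPKM. The mice also differed in other cell markers. The 5 slow fibre markers summed to 5.19 to 623 FPKM in control mice and 3.59 to 52.9 in HFD mice, and the 6 white adipocyte markers to 439 to 2310 and 33.6 to 447 FPKM. No marker of these lists passed the test between HFD and control mice. Of the 4 brown adipocyte markers 2 fell, and their sum was 240 to 765 FPKM in control and 186 to 237 FPKM in HFD mice. On the principal component that carried 15.5% of the variance of the outside lncRNAs, control mice scored -11.2 to -33.9 and HFD mice 6.53 to 18.4, and control 3 and HFD + metformin 3 stood apart at -33.9 and -29.7. In bulk tissue, fewer cells of a type and less RNA per cell cannot be told apart.

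Long noncoding RNAs are transcripts with little or no coding capacity. Some act on chromatin or bind RNA or protein, some are hosts of microRNAs, and the act of transcription itself can influence a neighbouring gene. Many catalogued lncRNAs near genes have no assigned function, and a fragment of a longer transcript, such as an extended 3' end or an intron, can be catalogued as an lncRNA of its own. Transcription factors named below as neighbours include Maf, a leucine zipper factor that acts in fast muscle fibre genes, Bcl6, a repressor with roles in lipid and immune genes, and Mef2c, a factor that drives muscle genes.

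Sequences are shown where a deposited interval met a reference sequence in GRCm38. The 3 promoter windows below, from RefSeq, each run 300 bases from 250 before to 50 after a gene's start, on the gene's strand, and are shown because an outside lncRNA that rose in the HFD group shares the bases in capitals. The lncRNA at the Bcl6 window is NONMMUT026006.2, that at the Sypl2 window is NONMMUT044757.2 (chosen after its values were seen) and that at the window of the lncRNA gene 2310065F04Rik is NONMMUT085366.1.
Bcl6, chr16:23988803-23989102, minus strand: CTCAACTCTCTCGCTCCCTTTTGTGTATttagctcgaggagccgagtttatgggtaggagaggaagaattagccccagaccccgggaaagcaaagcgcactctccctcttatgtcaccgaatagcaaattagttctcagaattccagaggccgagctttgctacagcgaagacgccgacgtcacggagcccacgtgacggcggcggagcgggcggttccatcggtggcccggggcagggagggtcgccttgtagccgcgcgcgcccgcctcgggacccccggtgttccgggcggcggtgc
Sypl2, chr3:108226550-108226849, minus strand: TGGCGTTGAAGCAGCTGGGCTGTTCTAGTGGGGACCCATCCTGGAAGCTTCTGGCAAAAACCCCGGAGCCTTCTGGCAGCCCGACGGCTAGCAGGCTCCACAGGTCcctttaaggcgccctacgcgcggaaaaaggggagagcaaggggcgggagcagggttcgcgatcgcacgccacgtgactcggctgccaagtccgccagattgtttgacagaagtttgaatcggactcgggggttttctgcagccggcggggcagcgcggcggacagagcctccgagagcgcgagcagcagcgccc
2310065F04Rik, chr11:67120031-67120330, minus strand: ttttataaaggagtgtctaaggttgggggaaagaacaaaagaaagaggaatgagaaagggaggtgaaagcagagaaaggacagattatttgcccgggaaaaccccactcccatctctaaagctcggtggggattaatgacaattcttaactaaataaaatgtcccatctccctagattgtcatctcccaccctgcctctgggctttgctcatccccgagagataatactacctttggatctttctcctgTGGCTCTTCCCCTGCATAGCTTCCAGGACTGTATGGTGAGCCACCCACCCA

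A set of 5 motifs was searched on both strands of these windows. The STAT-type motif TTCNNNGAA was found in the Bcl6 window, the E-box CAGCTG in the Sypl2 window, the TATA box TATAAA in the 2310065F04Rik window, and the glucocorticoid receptor core AGAACA in the latter 2, while a MEF2 motif was found in none of the 3. Among all 32851 promoter windows, these motifs were present in 8.3%, 16.3%, 13.6%, 19% and 1.86%. Among the 389 windows that share bases with an outside lncRNA, they were present in 6.94%, 17.5%, 7.46%, 16.5% and 2.06%. In all, 350 outside lncRNAs shared bases with a promoter window, and 6 of them passed the test between HFD and control mice. A match describes letters in a window and not a bound site.

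The next sequences come from GENCODE transcripts of the same build. The pieces of Gm26876, 4930488N15Rik and Lncpint are exonic bases shared with NONMMUT139818.1, NONMMUT131721.1 and NONMMUT150343.1, and are shown as the annotated parts of the loci described below. NONMMUT131721.1 was chosen after its values were seen.
Gm26876, chr10:128647462-128647661, plus strand: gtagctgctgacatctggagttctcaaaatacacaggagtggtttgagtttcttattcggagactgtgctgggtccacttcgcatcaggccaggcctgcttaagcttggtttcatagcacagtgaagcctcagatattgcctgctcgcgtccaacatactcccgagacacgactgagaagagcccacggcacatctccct
4930488N15Rik, chr8:115585392-115585459, plus strand: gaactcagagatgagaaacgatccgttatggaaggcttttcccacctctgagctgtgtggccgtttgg
Lncpint, chr6:31165498-31165584, minus strand: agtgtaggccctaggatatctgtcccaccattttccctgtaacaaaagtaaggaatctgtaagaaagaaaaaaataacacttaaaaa

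MicroRNAs lie beside some of these lncRNAs, and the mature RefSeq sequences of a pair are given with the seed, bases 2 to 8, in capitals. Mir29a and Mir29b-1 lie between outside lncRNAs next to Lncpint, and miR-29a-3p and miR-29b-3p share the seed AGCACCA. Mature microRNAs were not measured in these libraries.
mmu-miR-29a-3p: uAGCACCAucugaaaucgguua
mmu-miR-29b-3p: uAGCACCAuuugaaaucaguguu

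Most outside lncRNAs were unspliced and weakly expressed, as were the 10194 rows that overlap mRNA intervals. Their length had a median of 1990 bases (204 to 28336), and 76.9% had a length equal to their span, that is, a single exon. In the rows that overlap mRNA intervals the median was 2180 bases and the share 83.8%. The mean FPKM of the outside lncRNAs, whose mean count the rule bounds, had a median of 0.463 and quartiles of 0.243 and 1.03. In the overlapping rows, under the same bounds, the median was 0.748. Against GENCODE M21, 2213 of the 3174 (69.7%) overlapped no gene, 471 overlapped an exon of an annotated lncRNA, 298 lay in an intron, and 34 overlapped an exon of another gene type. The other 158 (4.98%) overlapped a GENCODE protein-coding gene, so the mRNA intervals do not cover the full span of every such gene. These 158 include the lncRNAs of highest level. NONMMUT034211.2 (chr19:23167113-23168119), with a mean FPKM of 63.5 ± 6.62 (SD, n = 4) in control and 46.9 ± 4.07 in HFD mice, overlaps Klf9 in GENCODE. NONMMUT025809.2 (chr16:20128106-20129216), at 52.3 ± 6.0 and 46.9 ± 2.55 FPKM, overlaps Klhl24. None of the 10 lncRNAs of highest mean FPKM passed any pairwise test.

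The outside lncRNAs lay close to one another and to genes. The nearest mRNA interval of a protein-coding gene was within 1 kb for 518, between 1 and 5 kb for 628, between 5 and 20 kb for 963, between 20 and 100 kb for 727 and over 100 kb for 338. They fell into 2261 loci of overlapping rows. When rows separated by at most 20 kb were joined, a gap chosen after the values were seen, 1555 chains resulted, of which 1002 held 1 lncRNA and 32 held at least 10. Rows of one chain are not independent of each other, since one transcript can give counts to several rows.

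The comparison of HFD with control mice asks which outside lncRNAs differ after the high-fat diet. Of 3161 tested, 69 rose and 18 fell at an adjusted P below 0.05 (edgeR), 2.18% and 0.569%, compared with 1.13% and 0.489% of all 17599 lncRNA rows tested. Either direction together gave 87 outside lncRNAs (2.75%) against a background of 1.61%. A single chain beside Maf, described below, held 33 of the 87. Of the rows inside mRNA intervals 95 rose and 48 fell among 10109. The log2 fold changes (log2FC, on the scale of CPM, counts scaled to the size of the lncRNA table) of the 69 ran from 0.52 to 4.46 with a median of 1.11, and those of the 18 from -0.71 to -8.16 with a median of -1.2. In all 87 the log2 CPM of the 4 HFD mice and the 4 control mice did not overlap, although some overlapped in FPKM. Across all tested outside lncRNAs, 10.4% were higher and 5.31% lower in HFD mice without overlap, against 6.83% and 5.72% of all rows. At an unadjusted P below 0.05, 657 passed (20.8%, against 17.6% of all rows). The study's criteria were a P below 0.05 and an absolute log2FC above 1, and it describes the P threshold as set by false discovery rate control. Applied here and below to the unadjusted P, these criteria gave 159 higher and 107 lower (5.03% and 3.39%), against 3.01% and 2.93% of all rows. The median log2FC was 0.109 over the outside lncRNAs and -0.004 over all rows.

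The balance of rises and falls depended on the scale. With normalisation factors taken over the lncRNA and mRNA rows together, 47 rose and 28 fell, and on the deposited FPKM scale (limma) 45 rose and 68 fell. On the FPKM scale the median of all rows was -0.207, compared with -0.004 on the CPM scale. The count also rested on single mice. Without control 2 no outside lncRNA passed, although all 87 kept an unadjusted P below 0.05, and without control 3 the count was 6. All 87 kept their sign in the 8 fits that each left out 1 mouse, and 16 passed in none of these fits, 58 in 1 to 3 and 13 in 5 to 7. The 6 that passed in 7 of 8 were NONMMUT104386.1, NONMMUT131711.1, NONMMUT028895.2, NONMMUT085366.1, NONMMUT067315.2 and NONMMUT115683.1.

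**Figure D1:**
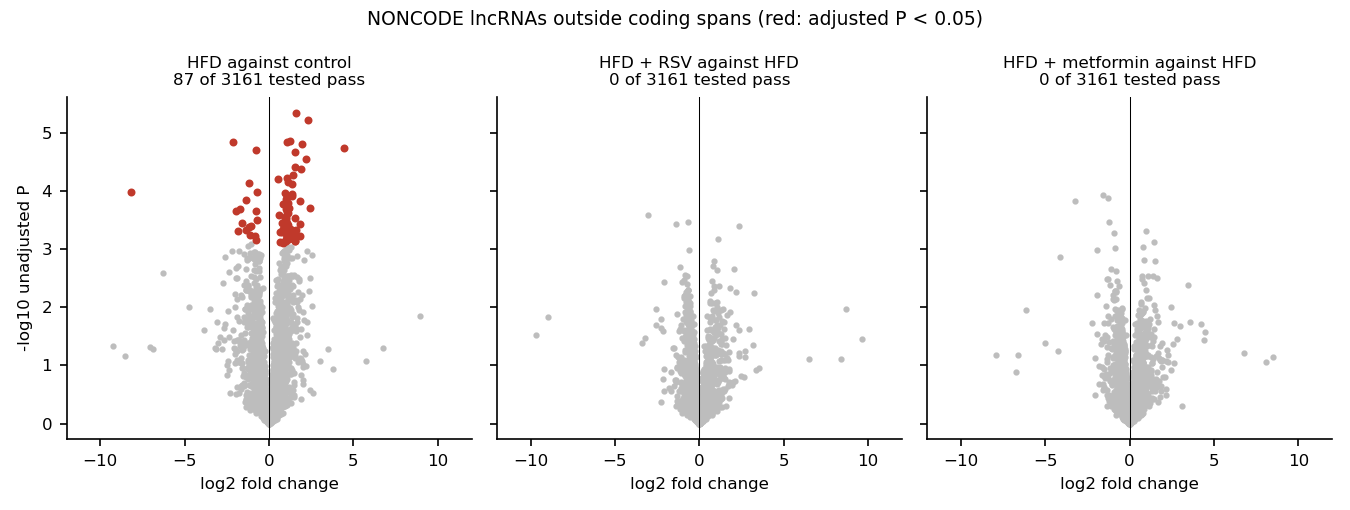
Unadjusted P (as -log10) against log2 fold change for the 3161 outside lncRNAs tested, one panel for HFD against control and one for each treatment against HFD, with a point per lncRNA. The 87 red points, 69 to the right and 18 to the left of zero, have an adjusted P below 0.05 in HFD against control, and the other panels have none.

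**Figure D2:**
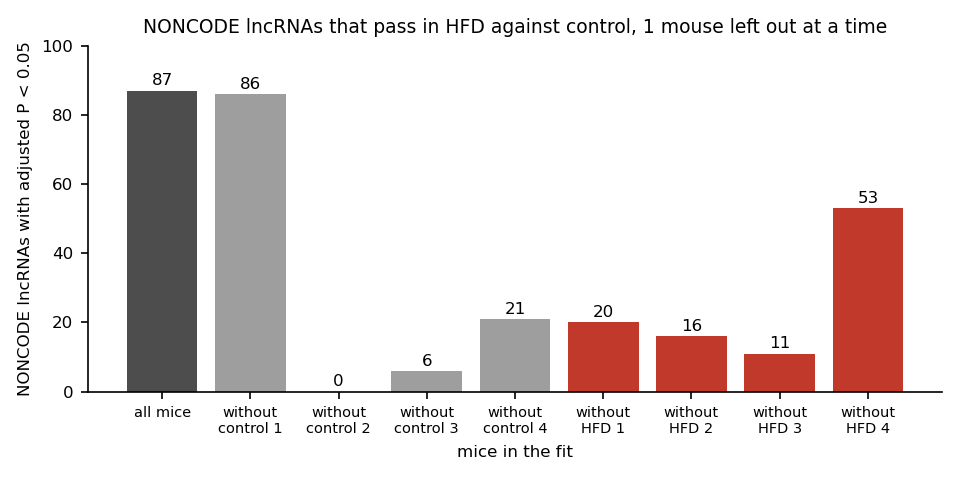
Number of outside lncRNAs with an adjusted P below 0.05 in HFD against control with all mice and with 1 mouse left out at a time. The bar with all mice stands at 87, and the bars with 1 mouse left out range from 86 without control 1 to 0 without control 2.

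The 87 were unevenly spread over levels and loci. In the upper 25% of FPKM 60 of 792 passed (7.58%), compared with 1.01% to 1.26% in the lower 3 groups of equal size, and counts are larger at high levels. Of the lncRNAs over 100 kb from the nearest such interval 20 of 337 passed (5.93%), compared with 8 of 514 (1.56%) within 1 kb. Much of both came from a single chain beside Maf, described below. Outside that chain 30 of 750 passed in the upper 25% and 8 of 318 passed beyond 100 kb. In all, 54 of 3112 (1.74%) passed outside it, of which 36 rose. This is near the share over all lncRNA rows tested, that chain included, of which 1.61% passed and 1.13% rose. The 87 lay in 44 chains, 32 with a riser and 13 with a faller. Of the 87, 2 reached the mean minimum of 10 counts only through the group in which they were high, so for these a difference follows from the rule. Over all 3174, 23 lncRNAs did so.

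Both outside lncRNAs upstream of Bcl6 rose. NONMMUT026006.2 (chr16:23989075-23992453, single exon, no GENCODE gene), whose end shares 28 bases with the Bcl6 window shown above and lies 223 bases upstream of the deposited Bcl6 interval, measured 4.39, 4.0, 4.18 and 2.88 FPKM in the control mice and 9.53, 7.16, 13.8 and 20.1 FPKM in the HFD mice. Every HFD mouse was above every control mouse, and HFD 4 was the highest of all 16. The means were 3.86 ± 0.675 and 12.7 ± 5.69 FPKM (SD, n = 4), with a log2FC of 1.95 ± 0.31 (SE, adjusted P = 0.0155). NONMMUT144296.1 (chr16:23998804-24001172) lies farther upstream, and its counts were 8, 17, 9 and 6 in control and 29, 42, 64 and 55 in HFD mice. Its log2FC was 2.42 ± 0.49 (adjusted P = 0.0294). Bcl6 itself was higher in HFD mice by a log2FC of 0.94 ± 0.28 that did not pass (adjusted P = 0.0791).

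The largest log2FC among the risers belonged to NONMMUT139818.1 (chr10:128646167-128652167), which overlaps the annotated lncRNAs Gm26876 and Gm49782, 176 bases upstream of Ikzf4, a zinc finger transcription factor. Its counts were 4, 2, 3 and 0 in control mice and 15, 36, 50 and 85 in HFD mice. The control counts are near zero, the HFD counts spread widely, and the groups do not overlap. It reached the mean minimum of the rule only through the HFD group. The log2FC was 4.46 ± 0.72 (adjusted P = 0.0155), between 3.88 and 5.01 when 1 mouse was left out. The study chose this lncRNA from these mice, so its difference here is not independent evidence. In a separate experiment on cultured mouse muscle cells, the study reported by RT-qPCR a rise with palmitate and a fall with palmitate plus RSV. Ikzf4 differed by a log2FC of 0.66 with an adjusted P of 0.21.

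A set of 3 risers lay beside genes of the contractile apparatus. NONMMUT153330.1 (chr9:67049817-67051341), 411 bases upstream of the tropomyosin gene Tpm1, measured 0.997, 0.54, 0.609 and 1.06 FPKM in control mice and 4.07, 2.72, 2.89 and 2.7 FPKM in HFD mice. HFD 1 was the highest, and the groups did not overlap. Its log2FC was 2.19 ± 0.37 (adjusted P = 0.0177), while that of Tpm1 was 0.66 ± 0.20 (adjusted P = 0.0803). NONMMUT085366.1 (chr11:67112462-67120081) and NONMMUT010284.2 (chr11:67112461-67116841) overlap each other and the exons of 2310065F04Rik, an lncRNA gene between myosin heavy chain genes. NONMMUT085366.1 measured 1.01, 0.998, 1.13 and 1.01 FPKM in control mice and 3.65, 3.46, 4.45 and 5.66 FPKM in HFD mice. The control mice were nearly equal, and the lowest HFD mouse was above the highest of them. The log2FC was 2.3 ± 0.34 (adjusted P = 0.0116) for NONMMUT085366.1 and 1.81 ± 0.41 (adjusted P = 0.0424) for NONMMUT010284.2. Of the myosin genes beside it, Myh3, the nearest protein-coding mRNA interval, had a log2FC of -1.9 (adjusted P = 0.148) and Myh2 of -1.49 ± 0.73 (adjusted P = 0.228). Farther along the cluster, Myh1 had a log2FC of -0.33 ± 0.49 (adjusted P = 0.711) and Myh4 of 0.67 ± 0.25 (adjusted P = 0.127), so none of the 4 passed. The slow fibre marker sums given above had a lower median in HFD than in control mice, 13.9 against 393 FPKM, with overlapping ranges, and their part in these differences was not tested.

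NONMMUT028895.2 (chr17:27358050-27367637), spliced, was the outside lncRNA of smallest P between HFD and control mice. It measured 0.224, 0.216, 0.297 and 0.227 FPKM in control mice and 0.623, 0.7, 0.473 and 0.658 FPKM in HFD mice. All HFD mice were higher, HFD 3 the least. The log2FC was 1.61 ± 0.23 (adjusted P = 0.0116). NONMMUT115683.1 (chr4:130288574-130293292), upstream of Serinc2, a gene of serine incorporation into lipids, measured 0.186, 0.187, 0.107 and 0.172 FPKM in control and 0.39, 0.436, 0.304 and 0.45 FPKM in HFD mice. The control mice lay together at the low level. Its log2FC was 1.52 ± 0.25 (adjusted P = 0.0155), and that of Serinc2 was 0.81 (adjusted P = 0.0609). NONMMUT044757.2 (chr3:108226744-108229453), which shares 106 bases with the Sypl2 window shown above and is named after its values were seen, measured 0.578, 0.64, 0.886 and 0.757 FPKM in control and 1.9, 1.68, 1.79 and 1.63 FPKM in HFD mice. Sypl2 encodes a protein of the muscle triad membrane. The groups were well apart, with a log2FC of 1.55 ± 0.27 (adjusted P = 0.0187).

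Of the 10 largest rises that also had no overlap, the other 4 were near genes of unrelated function. NONMMUT084604.1 near Gprc5c rose by a log2FC of 1.91 ± 0.33 (adjusted P = 0.0188), and Gprc5c, an orphan receptor gene, also rose, by 1.34 (adjusted P = 0.0306). NONMMUT044255.2, which overlaps Gm20627 in a histone gene cluster, rose by 1.84 ± 0.4 (adjusted P = 0.0352). NONMMUT148657.1, nearest to Ctps, rose by 1.81 ± 0.36 (adjusted P = 0.0259), and NONMMUT131241.1 near Lsm6 by 1.67 ± 0.38 (adjusted P = 0.0424). All 4 had few reads, with mean counts between 11.6 and 16.5 over the 16 mice.

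The 18 fallers were led by NONMMUT153500.1 (chr9:115512854-115513592), 202 kb from the nearest mRNA interval of a protein-coding gene. Its counts were 14, 31, 92 and 16 in control mice and 0 in each HFD mouse. Control 3 was the highest, and no HFD mouse had a count. Set against a floor of 3 counts per library, it was at least 11.0-fold lower in HFD mice, a bound that covers counting error only (adjusted P = 0.0226). Without control 3 the bound was 6.14-fold and the difference no longer passed. In the treated groups, it had 1, 0, 7 and 3 counts with metformin and 1, 0, 4 and 0 counts with RSV, both below every control mouse. It reached the mean minimum through the control group alone.

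Other fallers differed in how often they passed when 1 mouse was left out. NONMMUT104386.1 passed in 7 of the 8 fits, and NONMMUT145809.1 and NONMMUT016163.2 in 1 each. NONMMUT104386.1, a spliced lncRNA downstream of Pcdh1, measured 0.333, 0.361, 0.331 and 0.162 FPKM in control mice and 0.0605, 0.057, 0.0563 and 0.0534 FPKM in HFD mice. The HFD mice were nearly equal, and control 4 was the lowest control. The log2FC was -2.13 ± 0.34 (adjusted P = 0.0155), and Pcdh1, a protocadherin gene, differed by -0.07 (adjusted P = 0.744). NONMMUT145809.1 near Hrasls5 had counts of 34, 25, 33 and 34 in control and 9, 7, 6 and 9 in HFD mice, groups far apart, with a log2FC of -1.95 ± 0.4 (adjusted P = 0.0294). NONMMUT016163.2, upstream of the gene of the transcription factor Sp4, had counts of 20, 24, 21 and 17 against 4, 7, 7 and 5, again without overlap. Its log2FC was -1.71 ± 0.35 (adjusted P = 0.0294).

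For a pair of fallers control 3 set much of the size. NONMMUT038202.2 (chr2:80838455-80838759) measured 19.5, 23.9, 59.4 and 12.5 FPKM in control mice and 6.49, 6.86, 8.94 and 8.43 FPKM in HFD mice. Control 3 was far above the other mice. Its log2FC of -1.62 ± 0.35 (adjusted P = 0.0349) became -1.07 (adjusted P = 0.0828) without control 3. NONMMUT031640.2, downstream of the ubiquitin ligase gene Rnf125, measured 3.59, 5.94, 12.4 and 2.94 FPKM against 1.19, 1.31, 1.56 and 1.69 FPKM, and its log2FC of -1.82 ± 0.41 (adjusted P = 0.0398) became -1.31 (adjusted P = 0.112). Rnf125 fell as well, by -2.02 (adjusted P = 0.0465). Control 3 is the control mouse that stood apart on the principal component above. The white adipocyte markers summed to 631, 439, 2310 and 939 FPKM in the control mice, with control 3 the highest. In the HFD + metformin mice they summed to 908, 21.4, 2190 and 89.7 FPKM, with HFD + metformin 3 the highest. The part of adipocyte content in these falls was not tested. Near S1pr1, a sphingosine-1-phosphate receptor gene of endothelial cells, NONMMUT044870.2 fell by a log2FC of -1.35 ± 0.27 (adjusted P = 0.0255), from 1.24, 0.816, 1.06 and 1.21 FPKM to 0.482, 0.239, 0.277 and 0.441 FPKM, 1 of 2 that fell among the 8 of its chain. The 4 endothelial markers summed to 61.4 to 82.3 FPKM in control and 52.7 to 58.8 FPKM in HFD mice, and their part was not tested. The remaining fallers of the 10 were NONMMUT099373.1, NONMMUT104237.1 and NONMMUT137559.1, with log2FC of -1.36, -1.21 and -1.2.

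**Figure D3:**
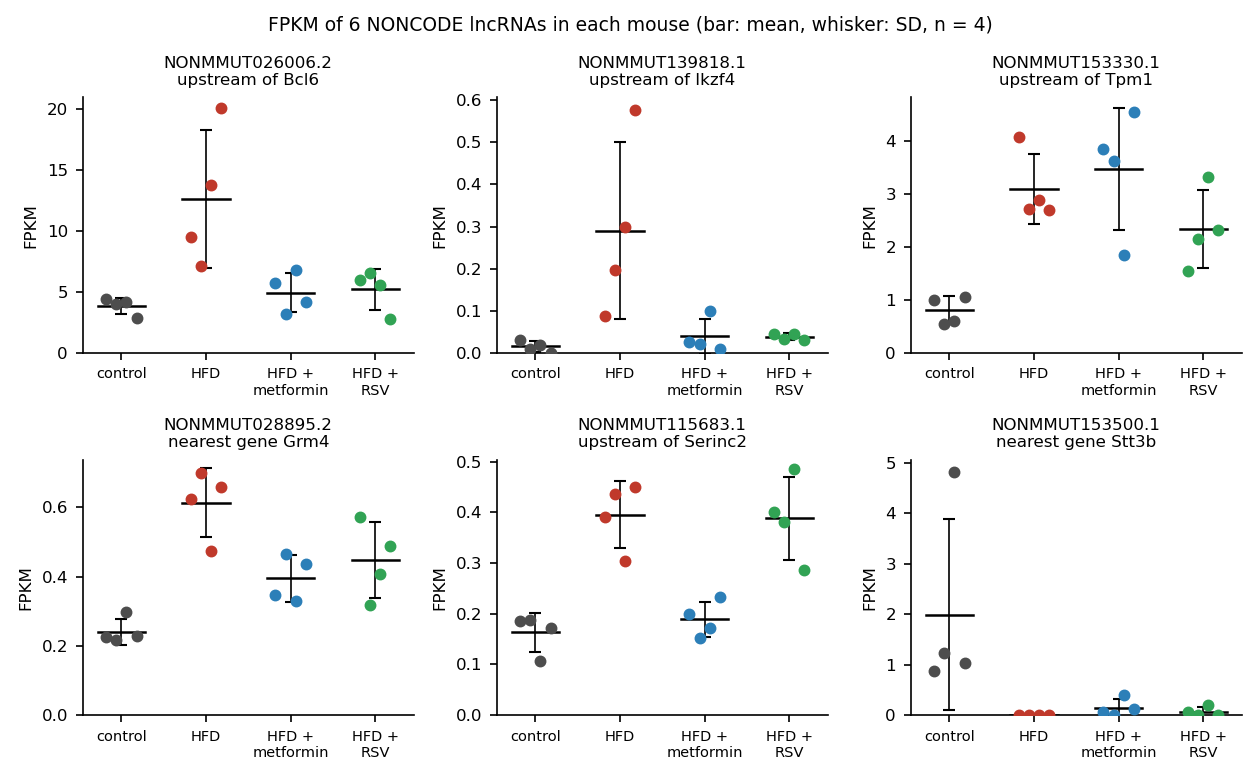
FPKM of 6 outside lncRNAs in each of 16 mice by group, with points for mice, a bar for the mean and whiskers for the SD (n = 4). In the HFD group 5 lie above and NONMMUT153500.1 lies below every control mouse.

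The largest block of rises was a chain of 49 outside lncRNAs between Wwox and Maf (chr8:115428968-115680559, 252 kb), downstream of the 3' end of Maf. Of these, 33 rose in the HFD group and 48 had a log2FC above zero, with a median of 0.99 (-0.27 to 1.43). Summed over the chain, CPM of the lncRNA table were 1883, 1368, 1479 and 1250 in control mice and 3304, 3099, 2851 and 2504 in HFD mice. The lowest HFD mouse was above the highest control mouse. The means were 1500 ± 275 and 2940 ± 345 (SD, n = 4). All 33 rows are near one another and may count the same transcripts, so the 33 are not 33 separate observations. The count of 33 was 29 without control 1, 24 without HFD 4, 2 to 4 without any of control 3, control 4 and HFD 1 to 3, and 0 without control 2, while the median log2FC stayed between 0.91 and 1.1. On the deposited FPKM scale 19 of the 49 rose, with a median of 0.7, and DESeq2 gave 41.

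Single members of the chain showed the same picture. NONMMUT131711.1 (chr8:115540667-115543330) measured 1.21, 1.13, 1.51 and 1.06 FPKM in control mice and 2.15, 2.22, 2.28 and 1.78 FPKM in HFD mice, with a log2FC of 1.04 ± 0.16 (adjusted P = 0.0155). No HFD mouse was as low as a control mouse. NONMMUT131721.1, whose exonic bases shared with 4930488N15Rik are shown above, rose by 1.01 ± 0.21 (adjusted P = 0.0294). Maf rose in the same comparison, from 27.2 ± 4.18 to 45.2 ± 2.44 FPKM, by a log2FC of 0.85 ± 0.19 (adjusted P = 0.0418), and Wwox at the other end of the chain had a log2FC of 0.04 ± 0.09 (adjusted P = 0.814). The level of the chain increased towards Maf. Over its 46 single-exon lncRNAs the mean FPKM went from 0.69 at the Wwox end to 3.88 at the Maf end, with a Spearman rho of 0.945 between level and position, given as a description since the rows share libraries.

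In the treated groups the chain was near or below the HFD level. Its summed CPM were 2797, 3324, 3418 and 2486 in HFD + RSV mice, all above every control mouse and spanning the HFD range. In HFD + metformin mice they were 2063, 2346, 1419 and 2836, with HFD + metformin 3 within the control range. The median log2FC against HFD was 0.04 with RSV and -0.46 with metformin. No member passed in either, and 0 and 26 had an unadjusted P below 0.05. The HFD mice are shared by all 3 comparisons, so these values are not independent of the HFD values above.

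**Figure D4:**
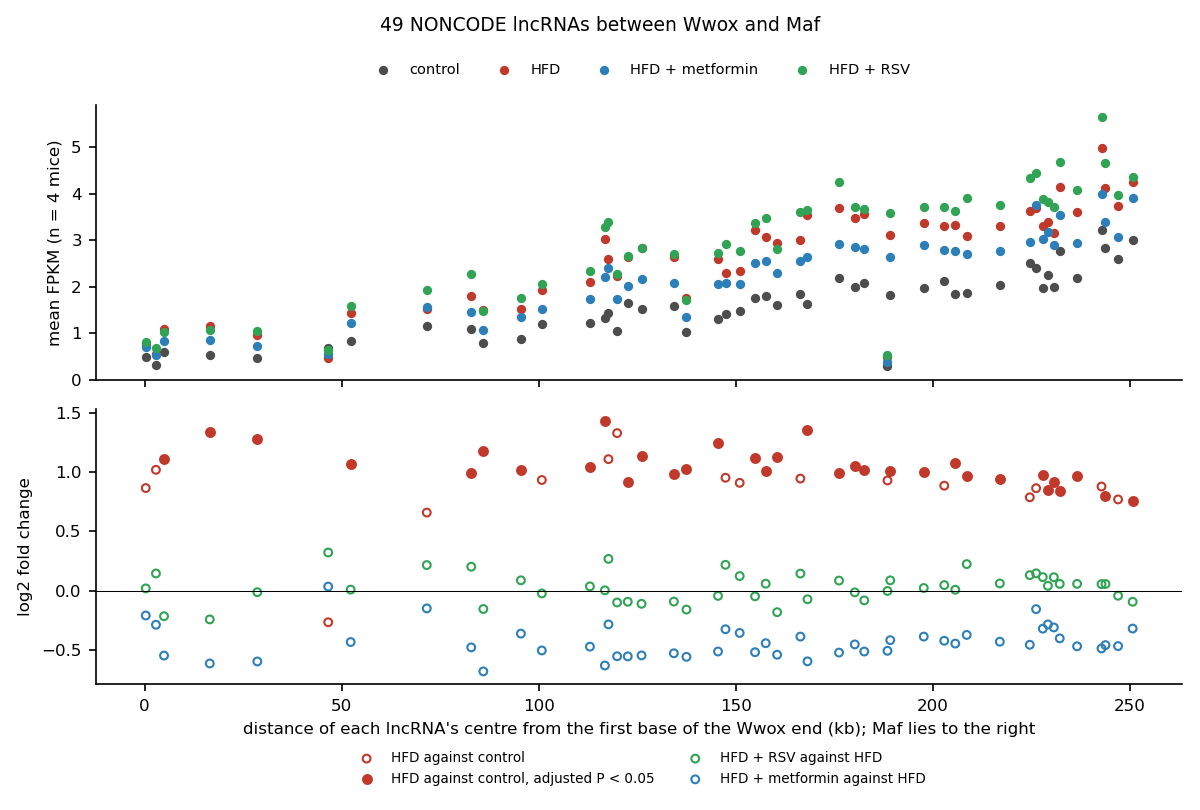
Mean FPKM by group (top) and log2 fold change in 3 comparisons (bottom) of 49 outside lncRNAs against distance from the Wwox end of the chain in kb, with filled points for an adjusted P below 0.05. Levels increase towards Maf, and the HFD and HFD + RSV means lie above the control means in 48 of the 49.

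A chain of 81 outside lncRNAs at Lncpint, the gene of a p53-induced lncRNA, held 4 of the fallers (chr6:31059281-31220240). It was split at the step in level after NONMMUT150331.1, from 29.9 to 7.98 FPKM, a boundary chosen after the values were seen. On the miR-29 side (chr6:31059281-31139742, 39 lncRNAs, next to Mir29a and Mir29b-1) the summed CPM were 3690, 4090, 4100 and 3660 in control mice and 5730, 3420, 3970 and 5430 in HFD mice. The HFD mice spread on both sides of the control mice. The median log2FC was 0.28 and none passed, with none at an unadjusted P below 0.05, by edgeR or DESeq2. On the FPKM scale the median was -0.01, so no direction is given. On the Mkln1 side (chr6:31141630-31220240, 42 lncRNAs) the sums were 4710, 4950, 4640 and 3750 in control and 2900, 2990, 2970 and 4140 in HFD mice, and HFD 4 was within the control range.

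On that Mkln1 side 40 of 42 had a log2FC below zero in HFD mice, with a median of -0.56. The 42 are near one another and may count the same transcripts, so they are not separate observations. The 4 that fell were NONMMUT150341.1, NONMMUT150342.1, NONMMUT150343.1 and NONMMUT150346.1, with log2FC of -0.71, -0.76, -0.76 and -0.8. NONMMUT150341.1, in an intron of Lncpint, measured 19, 22.5, 26.5 and 19.5 FPKM in control mice and 11.8, 9.29, 10.1 and 13.7 FPKM in HFD mice (log2FC -0.71 ± 0.13, adjusted P = 0.0226). The groups do not overlap. The 4 became 0 without control 2, control 3 or HFD 3, 1 to 3 without control 1, control 4, HFD 1 or HFD 2, 10 without HFD 4, 9 with normalisation over both kinds of row, 13 with DESeq2 and 25 on the FPKM scale, with medians of -0.48 to -0.82 over all alternatives.

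The values of the 2 sides in the RSV comparison are given separately. On the miR-29 side, the HFD + RSV mice summed to 3720, 2530, 3110 and 3020 CPM, and RSV 1 was the highest of them and lay above the lowest HFD mouse. All 39 log2FC against HFD were below zero, from -1.06 to -0.3 with a median of -0.6. Of these, 31 had an unadjusted P below 0.05, against 6.29% of all rows, yet none passed (smallest adjusted P = 0.585). On the Mkln1 side the median was 0.11. With metformin the medians were -0.08 and -0.01. The 39 lie near one another and may count the same transcripts in the same mice, so they are not 39 separate observations. Whether the sides differ in response was not tested.

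**Figure D5:**
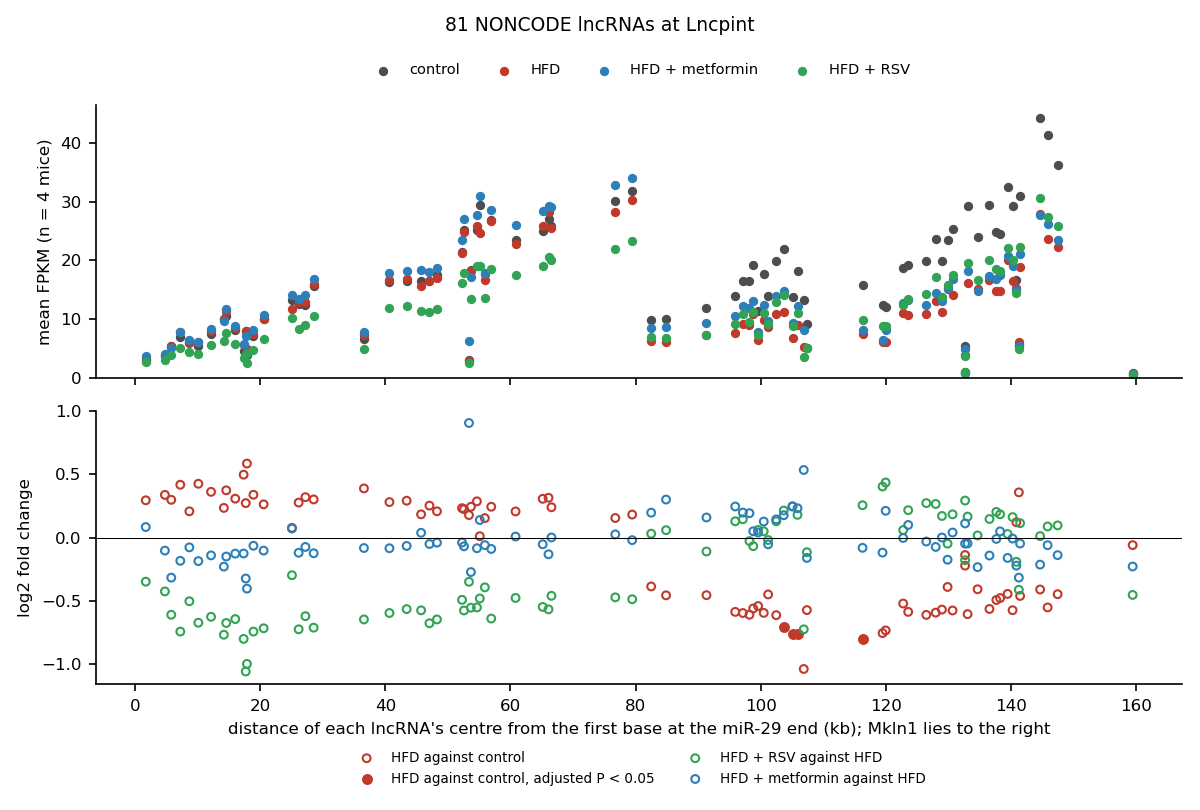
Mean FPKM by group (top) and log2 fold change in 3 comparisons (bottom) of 81 outside lncRNAs against distance from the miR-29 end of the Lncpint chain in kb, with filled points for an adjusted P below 0.05. To the left of the step in level HFD + RSV means are the lowest in all 39, and to its right control means are the highest in 40 of 42.

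Outside lncRNAs were also grouped by the function of the nearest protein-coding gene, from lists chosen with earlier results of these data known. Beside sarcomere and contractile genes lay 7 outside lncRNAs, of which the 3 described above rose (42.9%) and none fell (median log2FC 0.571). Over all outside lncRNAs tested 2.18% rose, and over all rows 1.13%. Of the 3, NONMMUT085366.1 and NONMMUT010284.2 overlap each other and are not separate observations. Beside myogenic factors lay 33, none of which passed, with a median of 0.809, and 24 of these form a chain upstream of Mef2c. That chain summed to 399, 328, 279 and 518 CPM in control mice and 730, 749, 781 and 405 in HFD mice, so HFD 4 overlapped the control mice. Mef2c itself rose by a log2FC of 1.66 ± 0.27 (adjusted P = 0.0149). Beside insulin signalling and glucose uptake genes lay 9 (median -0.441), beside lipid genes 21 (median -0.213) and beside circadian and stress genes 10 (median 0.398), and none of these passed. The highest of them by P was NONMMUT041322.2, 74616 bases from the phosphatase gene Ptpn1, with a log2FC of 0.93 ± 0.24 and an adjusted P of 0.0636. The median over all tested outside lncRNAs was 0.109. The 33 beside myogenic factors lay in 7 chains, the 9 in 4, the 21 in 3 and the 10 in 7. In the myogenic, insulin and lipid lists most were nearest to Mef2c, Ptpn1 and Ppara, respectively. Rows of the same chain are not independent, so these medians describe few loci and not a class of genes.

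Of the known lncRNA genes looked up by name, 8 overlapped outside lncRNAs. These were Lncpint with 67, Jpx with 12, Airn, Mir99ahg, Neat1 and Pvt1 with 3 each, and Hotair and Meg3 with 1 each. Apart from the 4 at Lncpint, none passed between HFD and control mice.

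The comparison of each treated group with the HFD group asks which outside lncRNAs respond to RSV or metformin. None passed in HFD + RSV against HFD by edgeR or limma (background 0.0114%), 205 had an unadjusted P below 0.05 (6.49%, against 6.29% of all rows), and DESeq2 called 6. At the study's criteria 40 were higher and 21 lower (1.27% and 0.664%), near the 1.03% and 0.892% of all rows. None passed in HFD + metformin against HFD by edgeR or limma (background 0.0%), 234 had an unadjusted P below 0.05 (7.4%, against 6.95%), and DESeq2 called 8. Here 39 were higher and 27 lower, or 1.23% and 0.854%, against 1.33% and 1.05% of all rows. The log2 CPM of HFD + RSV mice lay above all HFD mice for 2.12% and below for 2.4%, against 2.05% and 2.0% of all rows. For HFD + metformin these shares were 1.52% and 2.44%, against 1.76% and 1.9%.

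The lncRNAs of smallest P in these comparisons are given with their values, none of which passed. The pair upstream of Bcl6 was low in both treated groups. NONMMUT026006.2 measured 5.99, 6.58, 5.54 and 2.79 FPKM with RSV and 5.69, 3.15, 6.76 and 4.15 FPKM with metformin. Each treated mouse was below the lowest HFD mouse, 7.16 FPKM. The log2FC against HFD was -1.39 ± 0.3 with RSV (adjusted P = 0.275) and -1.58 ± 0.31 with metformin (adjusted P = 0.329). NONMMUT144296.1 had 25, 26, 24 and 5 counts with RSV and 11, 4, 22 and 19 with metformin, all below the HFD counts of 29 to 64. Its log2FC was -1.3 ± 0.46 (adjusted P = 0.663) and -1.93 ± 0.47 (adjusted P = 0.433). NONMMUT139818.1 had 7, 5, 7 and 5 counts with RSV and 3, 4, 14 and 2 with metformin, with log2FC of -3.01 ± 0.63 (adjusted P = 0.239) and -3.21 ± 0.64 (adjusted P = 0.331). The treated mice were below the HFD mice, except that HFD + metformin 3 was just below HFD 1 by count and above it in FPKM, 0.0999 against 0.0868.

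NONMMUT115683.1 near Serinc2 differed in value between the treated groups. It measured 0.401, 0.38, 0.485 and 0.286 FPKM with RSV, overlapping the HFD mice, and 0.199, 0.152, 0.172 and 0.232 FPKM with metformin, below every HFD mouse. The log2FC against HFD was -0.15 ± 0.24 with RSV and -1.25 ± 0.24 with metformin (adjusted P = 0.329). NONMMUT054892.2, which overlaps the lncRNA gene 4933404O12Rik, had 35, 37, 35 and 29 counts in HFD mice, 2, 14, 14 and 2 with RSV, 1, 21, 8 and 12 with metformin and 10, 9, 3 and 3 in control mice. The HFD mice were alone at the high level. Its log2FC was 2.52 ± 0.63 for HFD against control (adjusted P = 0.0579), -2.11 ± 0.61 for RSV and -1.91 ± 0.6 for metformin against HFD (adjusted P = 0.586 and 0.617). NONMMUT115331.1, NONMMUT150302.1 of the miR-29 side and NONMMUT145548.1 were the others with a lower value, at log2FC of -1.12 and -1.0 with RSV and -1.24 with metformin.

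Higher values after treatment were found as well. NONMMUT143802.1 near Tob2 had 5, 3, 10 and 1 counts in HFD mice and 14, 38, 12 and 36 with RSV, compared with 16, 17, 24 and 21 in control mice. The HFD mice were below all of these, with a log2FC of 2.34 ± 0.52 for RSV against HFD (adjusted P = 0.275). From these mice and at its own criteria, the study lists NONMMUT143802.1, NONMMUT081465.1 and NONMMUT054892.2 as changed by HFD and reversed with RSV. NONMMUT016163.2 near Sp4, which fell in HFD mice, had 10, 12, 32 and 20 counts with metformin, above the HFD counts of 4 to 7, and its log2FC was 1.48 ± 0.35 (adjusted P = 0.394). The others were NONMMUT035289.2, NONMMUT081465.1, NONMMUT022245.2 and NONMMUT137554.1 with RSV, at log2FC of 1.13, 2.05, 1.07 and 1.16, and NONMMUT096518.1, NONMMUT106484.1, NONMMUT074307.2 and NONMMUT104691.1 with metformin, at 1.52, 1.38, 1.07 and 1.63. In log2 CPM the mice of the compared groups overlapped for NONMMUT137554.1, NONMMUT106484.1 and NONMMUT104691.1.

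The 69 risers had a median log2FC of -0.15 (-3.01 to 0.25) with RSV and -0.48 (-3.21 to 0.26) with metformin against HFD, and of 1.03 (0.23 to 1.67) and 0.6 (0.05 to 2.21) against control. These comparisons share mice with the one that chose the risers, so the values are a description. Named risers differed in how near the HFD level they were after treatment. NONMMUT153330.1 near Tpm1 measured 3.85, 3.63, 1.85 and 4.55 FPKM with metformin and 1.55, 2.15, 3.32 and 2.32 FPKM with RSV, all above the control mice. Its log2FC against HFD was 0.01 ± 0.34 with metformin and -0.52 ± 0.34 with RSV. NONMMUT085366.1 in 2310065F04Rik measured 1.94, 2.39, 1.34 and 3.87 FPKM with metformin and 1.83, 3.86, 2.31 and 2.99 FPKM with RSV, between the 2 groups for most mice. Its log2FC against HFD was -1.0 ± 0.32 with metformin and -0.76 ± 0.32 with RSV. NONMMUT028895.2 measured 0.347, 0.466, 0.329 and 0.436 FPKM with metformin, below every HFD mouse, and 0.573, 0.318, 0.408 and 0.489 FPKM with RSV, overlapping them. Its log2FC against HFD was -0.82 with metformin and -0.57 with RSV. Among the fallers, NONMMUT104386.1 near Pcdh1 measured 0.115, 0.136, 0.0764 and 0.0953 FPKM with RSV, above the HFD mice and below the control mice, and 0.0988, 0.0626, 0.291 and 0.129 FPKM with metformin. None of these treated values passed a test against HFD.

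Against the control group, 1 outside lncRNA rose with RSV (0.0316%, background 0.00568% higher and 0.0114% in either direction) and 461 had an unadjusted P below 0.05 (14.6%, against 10.9%). DESeq2 called 61 higher and 9 lower, limma 3 and 1, and edgeR with only these 2 groups called 0. At the study's criteria 127 were higher and 42 lower with RSV (4.02% and 1.33%), against 2.04% and 1.33% of all rows, and 6.55% and 2.78% did not overlap, against 4.07% and 3.15%. None passed with metformin by edgeR (background 0.0%), with 364 at an unadjusted P below 0.05 (11.5%, against 9.98%), 1 by limma and 23 by DESeq2. Here 72 were higher and 35 lower at the study's criteria (2.28% and 1.11%, against 1.68% and 1.18%), and 2.47% and 2.56% did not overlap, against 2.5% and 2.56%. The riser was NONMMUT110382.1 (chr2:177385679-177386711), near Gm14418. It measured 0.491, 0.484, 0.6 and 0.554 FPKM in control mice, 0.739, 1.04, 0.764 and 0.632 in HFD mice, 0.859, 0.575, 0.787 and 0.775 with metformin and 1.23, 1.18, 1.4 and 1.45 with RSV. In FPKM the RSV mice were the highest of all 16, and the control mice overlapped only with a metformin mouse. Its log2FC was 1.45 ± 0.21 for RSV against control (adjusted P = 0.0386). Between RSV and metformin none passed by edgeR or limma (background 0.00568%), 180 had an unadjusted P below 0.05 (5.69%, against 5.32%), and DESeq2 called 2. At the study's criteria 22 were higher and 12 lower with RSV (0.696% and 0.38%, against 0.96% and 0.835%), and 1.11% and 1.58% did not overlap, against 1.05% and 1.28%. A test of any difference among the 4 groups called 5 (0.158%, background 0.0795%), with 15.2% at an unadjusted P below 0.05, against 12.2%. These were NONMMUT139818.1, NONMMUT026006.2, NONMMUT115683.1, NONMMUT131711.1 and NONMMUT110382.1, with adjusted P of 0.0461, 0.047, 0.047, 0.047 and 0.047. The 6 pairs of groups share mice, so these counts are not independent of each other.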

How the data were processed

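Skeletal muscle RNA of 16 mice was sequenced after ribosomal RNA removal. Per the study's methods and the labels, the authors aligned reads to GRCm38 with HISAT2 after fastp and assembled and quantified transcripts with StringTie, and deposited, for lncRNA and mRNA rows, expected counts written as whole numbers and FPKM values scaled by the authors to length and library size. Versions of HISAT2 and fastp were not given in the sources used here.

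The rule for outside lncRNAs was applied to the whole lncRNA table. Counts were fitted over all 16 mice with edgeR 4.0.16 (TMM, filterByExpr with a minimum count of 10 and total of 15, robust quasi-likelihood test) in R 4.3.3, and P-values were adjusted by Benjamini-Hochberg over 17599 rows. The mRNA counts were summed per gene and fitted in the same way. All adjusted P in the text are from these fits unless another tool is named. Alternatives were DESeq2 1.42.0, limma 3.58.1 on log2(FPKM + 0.1), other normalisations, no filter, loci, fewer groups and leaving out mice. Tested on simulated data for HFD against control (17599 rows), the fit recovered 69% of 200 rows changed by a log2FC of 2 and called 4 unchanged ones.

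Named lncRNAs were the up to 10 of largest log2FC per direction that passed without overlap of log2 CPM in HFD against control and in each treated group against HFD, filled to 5 by smallest P at the study's criteria, the 10 of highest FPKM, those of smallest P in the test of any group, those at the bounds, and those that the study names or that overlap known lncRNA genes. The members and lists were chosen with earlier results of these data known. The labels do not say whether mice shared a litter or cage, and P-values measure the spread between these mice. The sequence of 1 locus is not reported here.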

Additional observations from a re-analysis of the deposited data

Results flagged for a closer look

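In groups of 4 mice, 1 mouse lay far from the other 3 in 13 of 200 groups tested (50 outside lncRNAs in 4 groups), and chance alone flags about 1 in 20 groups. The value given is the share of the group's log2 CPM range taken by the gap between that mouse and its nearest neighbour.

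In the control group, NONMMUT153500.1 gave 0.864 with control 3 at 92 counts against 14 to 31 in the others, and NONMMUT110382.1 gave 0.857 with control 2. The Klf9 lncRNA NONMMUT034211.2 gave 0.867 with control 4, NONMMUT154238.1 gave 0.849 with control 2 and NONMMUT056487.2 gave 0.889 with control 1. In the HFD group, NONMMUT153330.1 near Tpm1 gave 0.868 with HFD 1 at 179 counts against 101 to 127, and NONMMUT150364.1 in a Lncpint intron gave 0.963 with HFD 4 at 333 counts against 233 to 243. NONMMUT137554.1 gave 0.857 with HFD 4 and NONMMUT115331.1 gave 0.829 with HFD 3.

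In the HFD + metformin group, NONMMUT143802.1 gave 0.89 and NONMMUT067315.2 of the Maf chain gave 0.898, both with HFD + metformin 3, and NONMMUT074307.2 gave 0.852 with HFD + metformin 4. In the HFD + RSV group, NONMMUT144296.1 upstream of Bcl6 gave 0.966 with HFD + RSV 4 at 5 counts against 24 to 26.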

How the results depend on the processing

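The number of outside lncRNAs that passed in HFD against control was 82 with DESeq2 size factors, 75 with normalisation over both kinds of row, 111 with only these groups, 113 with limma, 102 for loci and 68 without control 3 and HFD + metformin 3, an alternative chosen after seeing the data, but 47 with no filter, 162 with DESeq2 and 0 to 86 when 1 mouse was left out (0 without control 2). In HFD + RSV against HFD, DESeq2 called 6 and leaving out a mouse gave 0 to 1. In HFD + metformin against HFD, DESeq2 called 8 and leaving out a mouse gave 0. In HFD + RSV against control the count was 5 with no filter, 0 with only these groups, 70 with DESeq2, 4 with limma, 0 without both mice that stood apart and 0 to 13 when 1 mouse was left out. In HFD + metformin against control it was 23 with DESeq2, 1 with limma, 1 for loci and 0 to 17 when 1 mouse was left out (17 without HFD + metformin 3). Between HFD + RSV and HFD + metformin it was 2 with DESeq2 and 0 to 1 when 1 mouse was left out. For any group it was 1 with normalisation over both kinds of row, 14 with no filter, 112 with DESeq2, 1 without both mice and 0 to 52 when 1 mouse was left out (0 without control 2, 52 without HFD + metformin 3). The cause was not tested. The rule gave 1820 lncRNAs when mRNA intervals were extended by 5 kb and 1710 with a mean count of at least 20. No log2FC of a named lncRNA that passed changed direction under these alternatives. No paired analysis was possible because the labels give the groups no common numbering of mice. The outside lncRNAs had a median mean count of 21.5, and how small a change could be detected at that depth was not tested.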
